A study of Mus musculus with 23 samples.

Results

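Macrophages are phagocytes that clear dead fibres, nerve debris and proteins from muscle, and other cells of the myeloid line, monocytes among them, share many of their transcripts. The 43 genes described here were taken from a fixed list of symbols of macrophage and myeloid cells, and all 43 were found among the 14500 genes of the expression table. They fall into 7 groups by role: 7 genes shared by leukocytes, 9 that mark macrophages, 5 of tissue-resident macrophages, 4 of monocytes, 9 of phagocytosis and degradation, 5 of macrophages that handle lipid, and 4 of antigen presentation. Of these genes, 42 were tested. Ptprc, which encodes CD45, stayed between 0.152 and 0.743 FPKM in wild-type libraries and did not pass the filter on low values. FPKM is fragments per kilobase of transcript, scaled by the number counted.

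Muscle holds resident macrophages between its fibres, and injury brings in monocytes from the blood that turn into macrophages on site. Those cells take up debris through complement and Fc receptors, digest it in lysosomes, and can present peptides on class II molecules. Macrophages loaded with membrane lipid switch on a further set of genes, of which Trem2 and Gpnmb are the best known.

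RNA came from the whole tibialis anterior, a muscle of the shin, of female C57BL/6 mice fed ad libitum, and was sequenced in 23 libraries. Treated muscles were injected with 6-OHDA (6-hydroxydopamine, a toxin that destroys sympathetic nerve endings) at 50 mg/kg in ascorbic acid repeatedly over 2 weeks, under isoflurane, and were taken after 2 further weeks. Sham muscles were not injected, so the toxin, its vehicle, the needle and the anaesthesia cannot be told apart. Muscles were taken at zeitgeber time 0 (ZT0) or 12 (ZT12). The wild-type sham group had 4 libraries at ZT0 and 3 at ZT12, from mice of 12 to 18 weeks. The wild-type 6-OHDA group had 4 at each time, from mice of 15 to 16 weeks at ZT0 and 12 to 15 weeks at ZT12. RE-RE mice carry 2 drivers, Hsa-Cre(-/tg) and Syt10-Cre(-/tg), on Bmal1(stopFL/stopFL): a stop cassette blocks Bmal1 until a Cre removes it. Syt10-Cre reaches neurons that include the central clock and Hsa-Cre reaches muscle fibres. Neither is a driver for macrophages. There were 2 RE-RE libraries at each time under each treatment, from mice of 10 to 11 weeks for sham and 12 to 18 weeks for 6-OHDA. Nothing in the labels says whether libraries of a group came from separate mice, so p-values measure only the spread between these libraries.

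The 6 markers of muscle fibres summed to between 35329 and 64713 FPKM in every library, so fibre transcripts were abundant throughout. Reads recovered from the steps between low FPKM values came to 21.1 to 35.9 M per library. Arntl, the gene of Bmal1, stood at 11.7 to 15.7 FPKM at ZT0 and 1.94 to 2.22 at ZT12 in uninjected wild-type muscle. In RE-RE sham muscle it stood at 11.0 to 14.3 and 2.83 to 4.07. Within a group the RE-RE libraries differed more than the wild-type ones: over the 42 tested genes the median residual SD on the log2 scale came to 1.56 (RE-RE) and 0.57 (wild-type), against 0.45 and 0.22 over all 12820 tested genes. Each genotype was therefore given its own error weight.

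Promoter sequences of RefSeq (GRCm38.p6, 250 bases before to 50 after a start) were on hand for 33 of the 43 genes, 39 promoters in all. Short motifs were searched on both strands. GAGGAAGT is bound by PU.1, the factor that directs the myeloid lineage. TGANTCA is a loose form of the AP-1 site, with any base allowed in the middle, and is called the AP-1 motif here. TCACGTGA is bound by MITF and TFE factors of the lysosome, and CTGATTGG is the Y box of class II genes. The PU.1 motif was in 5 of the 39 promoters (12.8%) and in 3.2% of all 32851 promoters. The AP-1 motif was in 7 (17.9%, against 7.81% of all), the Y box in 2 (5.13%, against 4.1%) and the MITF and TFE box in 0 (against 0.974%). In Trem2, Cybb and Ms4a7 the middle base of the AP-1 motif was A or T, and in the other matches C or G. These matches are descriptions of letters, not evidence of binding. The stretches printed here are those of 150 bases before and 30 after the RefSeq start, 5′ to 3′ on the strand of the gene, for 2 lipid-associated genes with the AP-1 motif, for 1 phagocytic gene with the PU.1 motif and for 2 class II genes with the Y box. Capitals mark the motif. In Ctss the capitals are the PU.1 motif of the opposite strand, and in Gpnmb they lie just after the start.
Gpnmb, chr6:49036368-49036547, plus strand: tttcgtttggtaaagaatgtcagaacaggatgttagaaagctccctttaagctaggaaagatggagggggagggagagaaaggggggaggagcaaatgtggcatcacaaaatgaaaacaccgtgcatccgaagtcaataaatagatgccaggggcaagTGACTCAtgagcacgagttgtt
Trem2, chr17:48346251-48346430, plus strand: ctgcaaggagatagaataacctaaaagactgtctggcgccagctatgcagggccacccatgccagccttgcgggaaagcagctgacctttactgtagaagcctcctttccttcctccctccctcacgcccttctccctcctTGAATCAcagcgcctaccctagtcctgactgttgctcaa
Ctss, chr3:95526636-95526815, plus strand: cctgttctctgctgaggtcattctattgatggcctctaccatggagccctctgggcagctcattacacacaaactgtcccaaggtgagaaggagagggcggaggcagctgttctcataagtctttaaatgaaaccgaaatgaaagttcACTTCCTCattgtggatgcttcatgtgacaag
H2-Aa, chr17:34287794-34287973, minus strand: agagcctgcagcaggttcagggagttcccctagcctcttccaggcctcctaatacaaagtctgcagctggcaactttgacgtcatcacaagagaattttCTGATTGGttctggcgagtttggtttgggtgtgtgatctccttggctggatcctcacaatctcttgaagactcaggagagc
H2-Eb1, chr17:34305717-34305896, plus strand: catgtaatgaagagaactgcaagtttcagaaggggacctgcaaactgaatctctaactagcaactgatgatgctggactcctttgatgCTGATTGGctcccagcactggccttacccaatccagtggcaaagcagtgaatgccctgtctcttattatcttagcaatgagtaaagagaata

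Comparing 6-OHDA with sham muscle in wild-type mice asks what the treatment changed in the presence of an intact clock. Of the 42 tested genes, 41 rose and 0 fell (limma, adjusted p under 0.05, times averaged). Over all 12820 tested genes 24.9% rose and 27.8% fell. The median log2 difference of the 42 genes was 2.17, beside -0.04 over all tested genes. Of the 42 genes 11, among them Adgre1, Ms4a7, Trem2 and Clec4d, passed the filter on low values only with the help of treated libraries, so their entry favoured a rise. With no filter, 42 of all 43 genes rose. For 29 of the 43 genes every 6-OHDA library lay above every sham library, which held for 8.03% of all tested genes. Fold changes are on the scale of log2(FPKM + 0.01), which gives large folds to genes with few reads. With 1 added in place of 0.01, 41 of 42 genes still rose, but the fold was over 1.5 times smaller for 22 of them. For Adgre1 it was 2.55 in place of 6.92, for Ms4a7 2.27 in place of 8.48, for Cybb 2.17 in place of 6.30 and for Fcgr1 1.56 in place of 4.46. In RNA of whole muscle, a larger number of macrophages and more RNA of these genes per cell cannot be told apart.

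**Figure D1:**
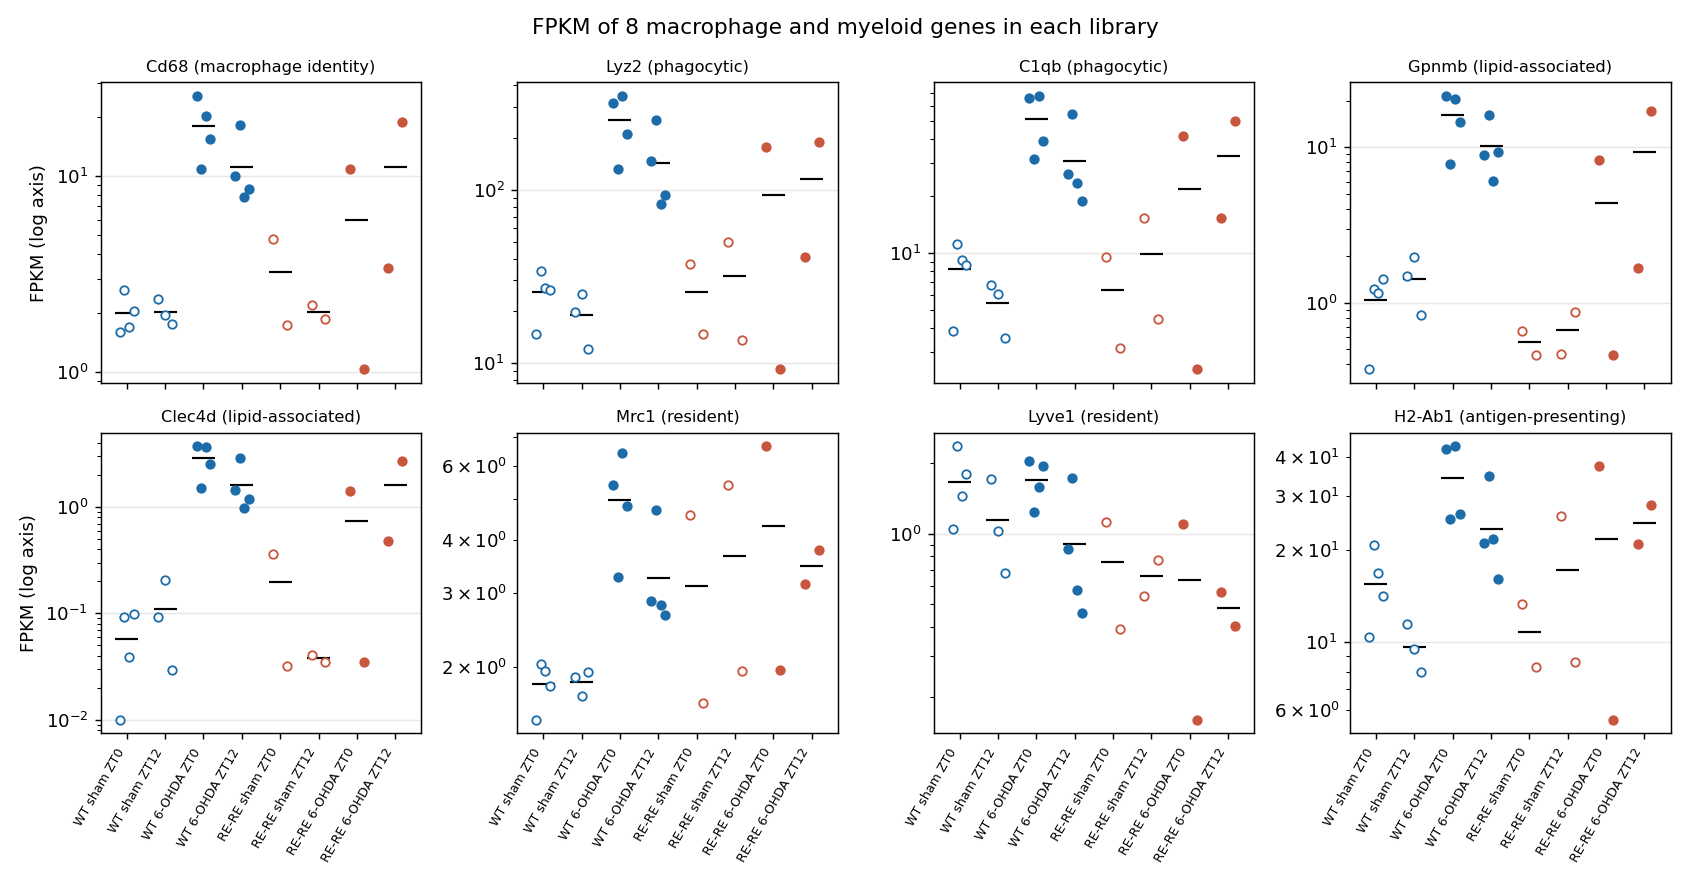
FPKM (log axis) of 8 genes in each library by group. Open symbols are sham, filled symbols 6-OHDA, blue wild-type, red RE-RE, black bars group means, and values of 0 are drawn at 0.01. In wild-type muscle the symbols of Cd68, Lyz2, C1qb, Gpnmb, Clec4d and Mrc1 do not overlap between treatments, while those of Lyve1 do. The RE-RE 6-OHDA libraries spread widely, for Cd68 from 1.03 to 18.9 FPKM.

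Among the markers of macrophages themselves, 9 of 9 rose, with a median log2 difference of 2.66. For 7 of the 9 the wild-type groups did not overlap, while those of Aif1 and Pld4 did. Cd68 (ENSMUSG00000018774, a glycoprotein of macrophage lysosomes) lay at 1.61, 1.95 and 2.62 FPKM (lowest, median and highest) in wild-type sham and at 7.83, 13.2 and 25.6 in wild-type 6-OHDA muscle. The groups did not overlap. Its mean went from 2.00 ± 0.37 (SD, n = 7) to 14.6 ± 6.36 FPKM (SD, n = 8), a log2 difference of 2.76 ± 0.26 SE, or 6.77-fold (limma adjusted p = 5.14e-06). Ms4a7, a membrane protein of the macrophage line, went from 0.12, 0.179 and 0.442 to 0.748, 1.78 and 3.65 FPKM, again without overlap (log2 3.08 ± 0.37 SE, limma adjusted p = 1.17e-05). Csf1r, the receptor for the growth factor on which macrophages depend, rose 3.89-fold, and Adgre1, the F4/80 antigen, 6.92-fold. Exons of Csf1r overlap those of Hmgxb3 on the opposite strand, and whether counting used strand is not given in the sources used here.

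Genes that macrophages share with other leukocytes rose in 6 of 6 cases, with a median of 2.19. Laptm5, a lysosomal protein of blood cells, lay at 0.726, 1.02 and 1.89 FPKM in sham and 3.07, 4.94 and 10.0 in 6-OHDA muscle (log2 2.36 ± 0.28 SE, limma adjusted p = 1.17e-05). Tyrobp and Fcer1g, the adaptors that carry signals from Trem2 and from Fc receptors, rose 4.90-fold and 4.25-fold, and for both genes the wild-type groups did not overlap. Cd53, Coro1a and Itgb2 rose 4.01-fold, 2.65-fold and 5.38-fold. Coro1a shares exon sequence with Bola2 on the opposite strand, whose mean over all libraries was 3.63 FPKM, beside 2.33 for Coro1a. The untested Ptprc had a highest sham value of 0.281 and a lowest 6-OHDA value of 0.26 FPKM, so its groups overlapped.

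The phagocytic genes rose in 9 of 9 cases, with a median of 2.53. Lyz2 (chr10:117277331-117282321), the lysozyme of macrophages and granulocytes, had the highest level of this group: 12.0, 25.0 and 34.2 FPKM in sham and 83.3, 179 and 347 in 6-OHDA muscle. The lowest treated library thus stood above the highest sham library. Its mean went from 22.8 ± 7.71 (SD, n = 7) to 198 ± 100.5 FPKM (SD, n = 8), a log2 difference of 3.05 ± 0.33 SE, or 8.29-fold (limma adjusted p = 8.93e-06). The near-identical Lyz1 is also in the table, so the level of Lyz2 is uncertain where reads fit both.

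Ctss, the cathepsin that trims the class II chaperone, went from 2.46, 4.67 and 5.60 to 15.6, 29.9 and 55.2 FPKM, or 7.78-fold (limma adjusted p = 1.15e-05). The 3 genes of complement C1q, the opsonin that tags debris, lie side by side on chromosome 4 between 136880129 and 136898803 (GRCm38), and rose 4.61-fold (C1qa), 5.77-fold (C1qb) and 5.20-fold (C1qc). C1qb, for example, lay at 3.58, 6.8 and 11.2 FPKM in sham and 18.9, 35.1 and 67.4 in 6-OHDA muscle. The Fc receptors Fcgr1 and Fcgr3 rose 4.46-fold and 6.12-fold. Cybb and Ncf1, parts of the oxidase that makes superoxide, rose 6.30-fold and 2.96-fold. Ncf1 shares exon sequence with Gtf2ird2 on the opposite strand, and its wild-type groups overlapped, as did those of Fcgr1.

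The 5 lipid-associated genes rose in 5 of 5 cases, without overlap between the wild-type groups, with a median of 3.48. That was the largest of the 7 role groups with 0.01 added, but with 1 added their median was 1.69, below the 2.02 of the phagocytic genes. Gpnmb (chr6:49036546-49070929), a glycoprotein of lysosomes and melanosomes, lay at 0.372, 1.22 and 1.96 FPKM in sham and 6.03, 12.0 and 21.4 in 6-OHDA muscle. Its mean went from 1.21 ± 0.51 (SD, n = 7) to 13.1 ± 5.92 FPKM (SD, n = 8), a log2 difference of 3.40 ± 0.36 SE, or 10.6-fold (limma adjusted p = 8.88e-06). Lgals3, a galectin that gathers at damaged membranes, was the most abundant of the 5: 1.65, 3.86 and 6.66 FPKM became 15.8, 24.6 and 43.1, or 6.40-fold (limma adjusted p = 1.07e-05).

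Trem2, the lipid receptor whose promoter is printed above, lay at 0.038, 0.215 and 0.271 FPKM in sham and 1.10, 2.19 and 3.84 in 6-OHDA muscle (log2 3.48 ± 0.46 SE, limma adjusted p = 1.95e-05). Atp6v0d2, a subunit of the proton pump that acidifies lysosomes, went from 0.0606, 0.131 and 0.477 to 1.35, 2.77 and 5.21 FPKM (log2 4.15 ± 0.47 SE, limma adjusted p = 1.07e-05). Clec4d, a C-type lectin of myeloid cells, had the largest difference of the 42 genes with 0.01 added and was number 15 with 1 added, where Lyz2 came first: 0, 0.0923 and 0.208 FPKM in sham and 0.988, 2.01 and 3.71 in 6-OHDA muscle (log2 4.88 ± 0.53 SE, limma adjusted p = 8.93e-06).

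For these 3 genes the sham level rests on few reads. Clec4d had 0 to 7 recovered reads per sham library and 55 to 205 per 6-OHDA library, Trem2 4 to 29 and 189 to 655, and Atp6v0d2 4 to 28 and 120 to 438. The size of their fold therefore depends on the constant added before taking logs: with the deposited 0.01 it was 29.5-fold for Clec4d, 11.2-fold for Trem2 and 17.7-fold for Atp6v0d2, and with 1 added to the FPKM it was 2.84-fold, 2.69-fold and 3.23-fold. All 3 remained past the test on both scales. For Gpnmb, whose sham libraries held 51 to 275 reads, the folds were 10.6 and 5.97.

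The genes of resident macrophages rose in 4 of 5 cases, with a smaller median of 1.09. Mrc1, the mannose receptor CD206, went from 1.5, 1.89 and 2.03 to 2.66, 3.98 and 6.43 FPKM, without overlap (log2 1.09 ± 0.17 SE, or 2.13-fold, limma adjusted p = 7.57e-05). Folr2, a folate receptor, went from 0.78, 1.06 and 1.72 to 1.78, 2.73 and 4.99 FPKM (2.35-fold, limma adjusted p = 8.27e-05), and shares exon sequence with Gm10602 on the opposite strand. F13a1, the A subunit of clotting factor XIII, went from 0.33, 0.779 and 0.964 to 1.48, 2.46 and 4.32 FPKM (3.95-fold, limma adjusted p = 3.33e-05).

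Cd163, the scavenger receptor for haemoglobin, rose least of the called genes: 0.997, 1.3 and 1.81 FPKM in sham and 1.21, 1.76 and 2.36 in 6-OHDA muscle, with overlapping groups (log2 0.35 ± 0.12 SE, limma adjusted p = 0.0225). That call was lost with quantile normalization (log2 0.17), without error weights, and without wild-type sham library 7 at ZT12 (log2 0.31). Lyve1, a hyaluronan receptor of some resident macrophages and of lymphatic vessels, was the 1 gene not called. It lay at 0.678, 1.45 and 2.37 FPKM in sham and at 0.457, 1.41 and 2.06 in 6-OHDA muscle, with a log2 difference of -0.17 ± 0.28 SE (limma adjusted p = 0.628) whose sign changed to 0.35 when every library was scaled to the same FPKM sum. Of the lymphatic markers beside it, Flt4 and Ccl21a had log2 differences of 0.33 and -1.11 that did not pass, and Pdpn rose by 1.43.

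The 4 monocyte genes rose in 4 of 4 cases, with a median of 1.29. Cd14, a receptor for bacterial lipopolysaccharide, went from 0.359, 0.677 and 1.16 to 1.26, 1.84 and 2.44 FPKM, the 1 gene of the 4 without overlap (log2 1.32 ± 0.23 SE, limma adjusted p = 0.000139). Ccr2, which draws monocytes out of the marrow, went from 0.437, 0.516 and 1.02 to 0.866, 1.37 and 1.83 FPKM (log2 1.16 ± 0.23 SE, limma adjusted p = 0.000531). Itgam, an integrin of monocytes and granulocytes, rose 2.80-fold. Cx3cr1, the fractalkine receptor, rested on 8 to 28 reads per sham library and 8 to 207 per 6-OHDA library. Its difference of 1.27 passed at an adjusted p of 0.0178 by limma and was lost with quantile normalization (log2 0.54) and without error weights.

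The antigen-presenting genes rose in 4 of 4 cases by nearly equal amounts, from 1.19 to 1.36 on the log2 scale, and the wild-type groups overlapped for all 4. Cd74, the invariant chain that escorts class II molecules, lay between 23.1 and 55.9 FPKM in sham muscle (mean 34.2 ± 11.4, SD, n = 7) and between 51.5 and 134 in 6-OHDA muscle (86.9 ± 32.7, SD, n = 8), a difference of 2.56-fold (limma adjusted p = 7.67e-05). H2-Aa and H2-Ab1, the chains of the I-A molecule, rose 2.45-fold and 2.28-fold. H2-Eb1 went from 10.46, 15.0 and 26.1 to 20.1, 35.7 and 59.3 FPKM (2.38-fold, limma adjusted p = 0.00018). In FPKM, which is per length of transcript, these 4 genes and Lyz2 had the highest mean sham levels of the 43.

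**Figure D2:**
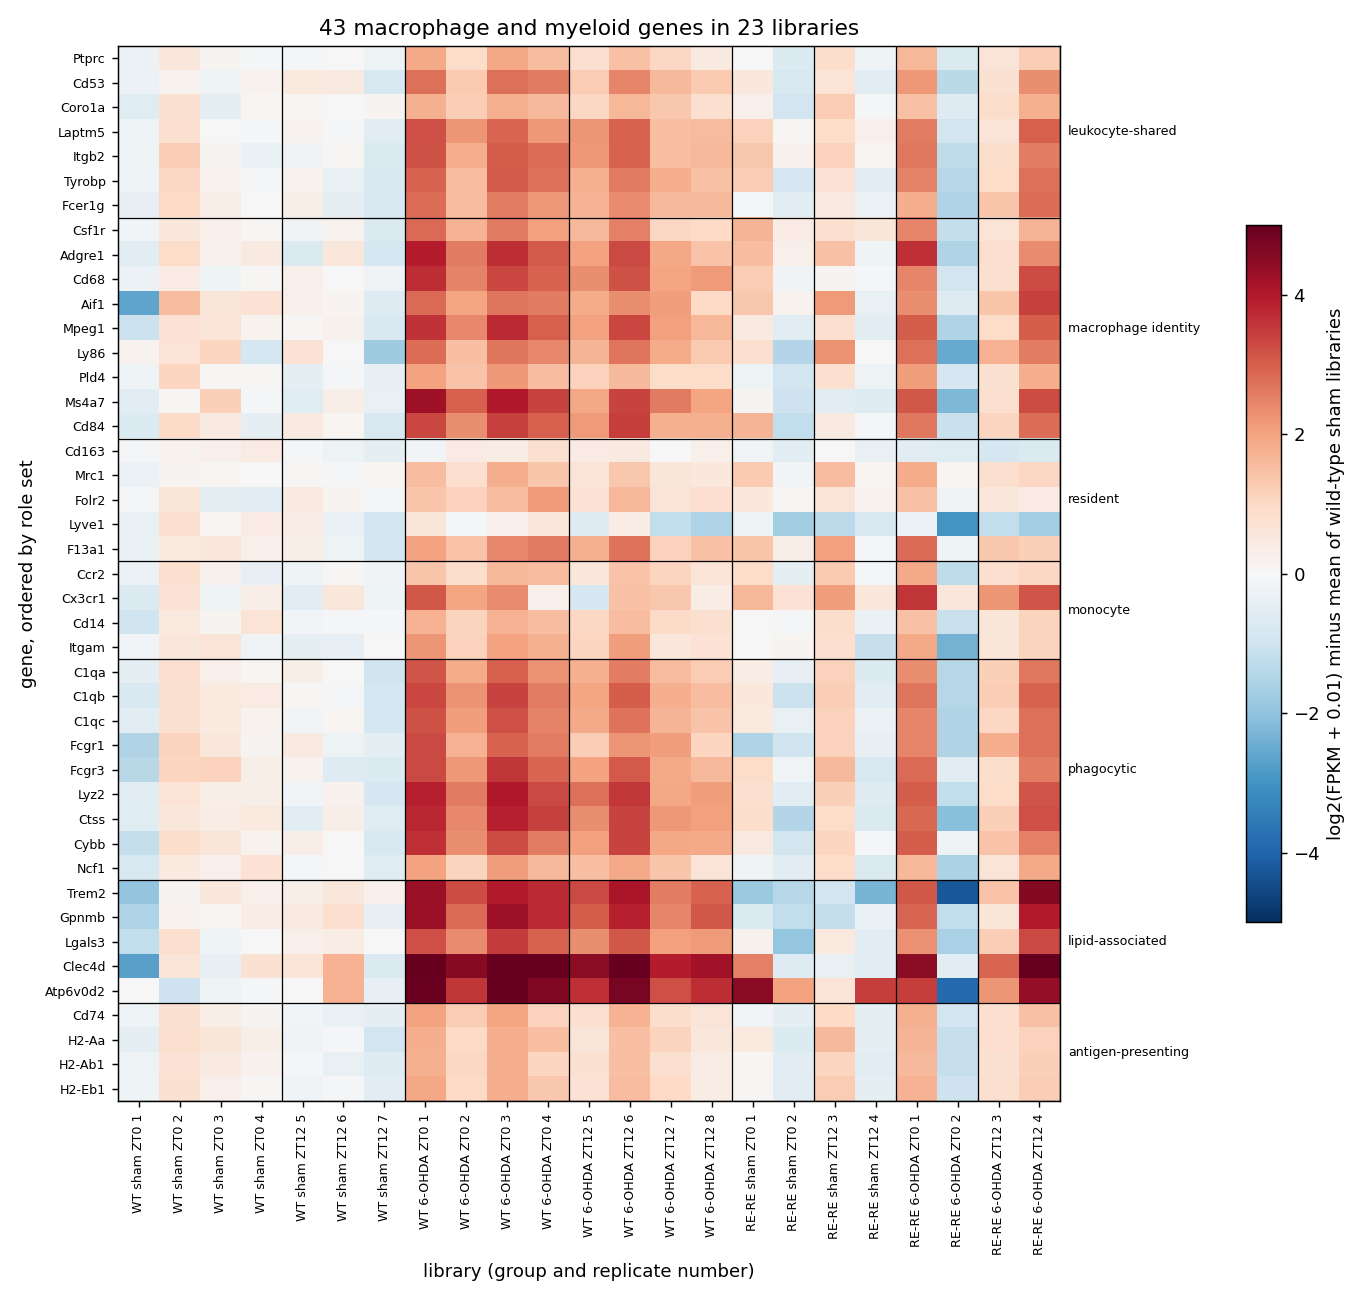
The 43 genes (lines, by role) in the 23 libraries (columns, by group), coloured by log2(FPKM + 0.01) minus the mean of the wild-type sham libraries, with the colour scale ending at 5 in either direction. The 8 wild-type 6-OHDA libraries are above the sham mean for nearly all genes, and RE-RE 6-OHDA library 2 is below it for most.

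In a ranking of the 42 genes by this difference, the 10 largest were 4 lipid-associated, 4 macrophage identity and 2 phagocytic genes, and the 10 smallest were 4 resident, 3 monocyte and 3 antigen-presenting genes. This order depends on the constant: with 1 added the 10 largest were 5 phagocytic, 2 lipid-associated, 2 macrophage identity and 1 leukocyte-shared genes. The 10 smallest were then 4 monocyte, 3 resident, 2 phagocytic and 1 macrophage identity genes, with 0 antigen-presenting genes among them. The balance between groups was read in each library as the mean log2 level of a group minus that of the 9 macrophage identity genes. For the lipid-associated genes this lay between -1.54 and 0.18 in the 7 wild-type sham libraries and between 0.32 and 1.04 in the 8 treated ones. For the resident genes it lay between 0.60 and 1.38 in sham and between -1.21 and -0.19 in treated muscle. For monocyte genes the ranges were -1.11 to -0.19 and -2.20 to -1.61, and for antigen-presenting genes 4.38 to 5.10 and 3.37 to 3.90. None of these 4 pairs of ranges overlapped. With 1 added to the FPKM, those of the antigen-presenting genes did overlap (2.96 to 3.71 in sham and 3.01 to 3.31 in treated muscle), and those of the other 3 groups did not. The ranges of the phagocytic genes overlapped, at 1.33 to 1.84 in sham and 1.44 to 1.64 in treated muscle, while with 1 added they lay at 0.79 to 1.2 and 1.34 to 1.58. Differences between the groups were not tested.

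**Figure D3:**
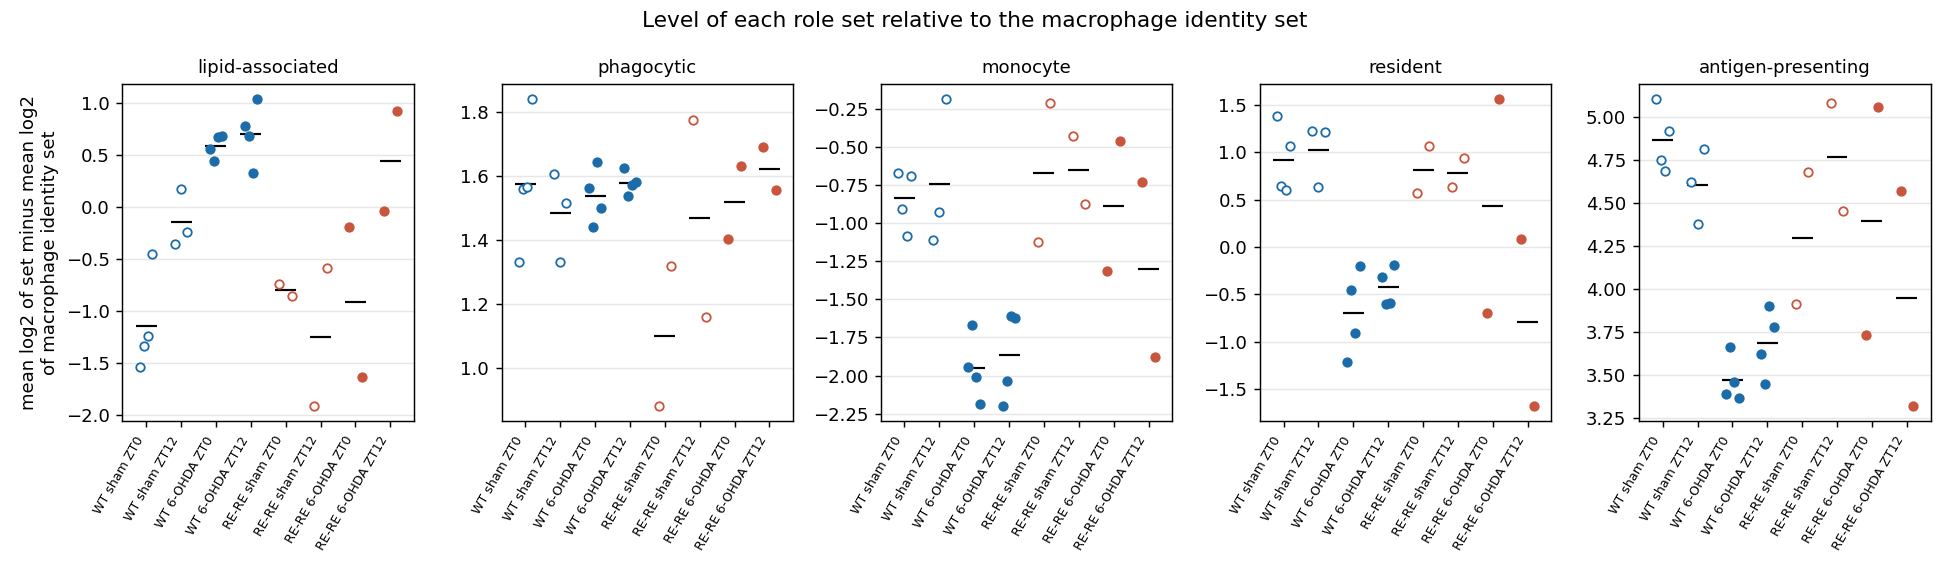
Mean log2(FPKM + 0.01) of 5 role groups minus that of the macrophage identity genes in each library. Symbols are as in the plot of FPKM by library and bars are group means. Treated wild-type libraries lie above sham for lipid-associated genes, below it for monocyte, resident and antigen-presenting genes, and among it for phagocytic genes, the last 2 only with 0.01 added.

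Single genes were also set against Csf1r. Gpnmb over Csf1r lay between 0.333 and 1.44 in wild-type sham and between 1.88 and 3.83 in treated muscle, and Lyve1 over Csf1r between 0.755 and 1.62 and between 0.186 and 0.381. A low ratio of Lyve1 was not limited to treated muscle. In RE-RE mice it lay between 0.246 and 0.422 in sham and between 0.102 and 0.301 in treated libraries. For H2-Ab1 over Csf1r the ranges, 6.94 to 11.8 and 4.95 to 8.64, overlapped. Those of the phagocytic genes C1qb and Lyz2 did not. C1qb over Csf1r lay between 3.48 and 6.83 in wild-type sham and between 6.89 and 9.32 in treated muscle. Lyz2 over Csf1r lay between 13.2 and 20.8 and between 32.1 and 46.4.

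The treated wild-type libraries differed among themselves in step across the genes. Library 1 was the highest of the 8 for 22 of the 43 genes and library 3 for 17, both taken at ZT0. Library 8, at ZT12, was the lowest for 24 and library 7 for 13. These mice were 15 to 16 weeks old at ZT0 and 12 to 15 at ZT12. Library 6 was among the highest 3 for 34 genes, the 1 library at ZT12 of which this held for any gene.

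Tested at each time alone, 40 of 42 genes rose at ZT0 (21.5% of all genes rose) with a median of 2.38, and 38 rose at ZT12 (13.5% of all) with a median of 2.11. At ZT0 Cd163 and Lyve1 did not pass. At ZT12 Aif1 (log2 1.88, limma adjusted p = 0.0575), Folr2 (0.79, adjusted p = 0.0587), Cx3cr1 and Lyve1 did not pass. The count at ZT12 fell to 25 without 6-OHDA library 6 and 26 without sham library 7, and was 0 when RE-RE and wild-type libraries shared 1 error estimate, where 2 genes passed in all.

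Other genes that act with these were counted from lists. Some of them, among them Csf2rb, Abcg1, Clec7a, Cd5l and Cd83, passed the filter on low values only with the help of treated libraries. Their entry favoured a rise. Of 11 growth factors, their receptors and transcription factors of the macrophage line, 7 rose and 3 fell, with a median log2 difference of 0.60. Spi1, which encodes PU.1, rose 3.65-fold (limma adjusted p = 4.15e-05), Cebpa, which primes myeloid precursors, 3.47-fold and Csf2ra, a receptor chain for GM-CSF, 2.53-fold. Maf fell by 0.70 on the log2 scale. Of 21 genes of lipid handling and the lysosome, 10 rose and 2 fell, with a median of 0.19. Lipa, the acid lipase of lysosomes, rose 3.23-fold (limma adjusted p = 6.36e-06), the fatty acid carrier Fabp5 2.22-fold and the cholesterol exporter Abcg1 3.06-fold.

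Of 11 receptors and ligands for uptake, 8 were in the table, 6 were tested and 6 rose (median 1.18), among them the bridging ligand Gas6 (1.88-fold, limma adjusted p = 8.93e-06) and the beta-glucan receptor Clec7a (9.58-fold). Cd5l, a secreted scavenger protein of macrophages, was listed at 0 in 5 of the 7 wild-type sham libraries, at 0.0579 and 0.087 FPKM in the others, and at 0.427 to 3.81 FPKM in the 8 treated ones. All 3 tested partners of class II rose: H2-DMa 2.39-fold, H2-DMb1 2.82-fold and Cd83 3.23-fold.

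Markers of other cells moved in the same comparison, and their part in the 41 rises was not tested. Of 7 fibroblast markers 7 rose, and their summed level went from between 126 and 327 to between 459 and 1522 FPKM. All 6 markers of regenerating fibres rose, from a sum of 8.64 to 19.0 to one of 27.3 to 145 FPKM. Of the 6 fibre markers 3 fell and 1 rose, and the sum went from between 50064 and 61356 to between 35329 and 49173 FPKM. All 4 tested mast cell markers and all 4 tested fat cell markers rose, as did 4 of 5 markers of blood vessels, while 4 of 5 erythroid markers fell. Among these markers, Cpa3, Cma1, Plin1, Cidec, Mymk and Chrng passed the filter on low values only with the help of treated libraries. Their entry favoured a rise.

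Of the listed markers of other leukocytes only a part was in the table, and those of neutrophils, T, NK, B and plasma cells were near the floor. Of 10 neutrophil markers listed, 2 were in the table. They summed to 0.0391 to 0.453 FPKM in wild-type sham and 0.346 to 1.12 in treated muscle, and the 1 tested, Csf3r, rose 3.97-fold. Csf3r passed the filter on low values only through treated libraries, so its entry favoured a rise. For T and NK cells 4 of 10 listed markers were in the table, and they summed to 0.418 to 1.09 and 0.576 to 2.57 FPKM. For B and plasma cells 2 of 6 were in the table, and they summed to 0.363 to 0.916 and 0.498 to 1.53 FPKM. None of these passed the filter on low values. Of 6 dendritic markers listed, 4 were in the table and summed to 2.12 to 3.33 FPKM in wild-type sham and 2.55 to 4.09 in treated muscle. Of these, 2 were tested and 0 were called (Cd209a log2 0.37, limma adjusted p = 0.254, and Zbtb46 0.02, adjusted p = 0.869). The untested Itgax lay at 0.0971 to 0.355 FPKM in wild-type sham and 0.319 to 1.33 in treated muscle, and Clec9a at 0.268 to 0.907 and 0.54 to 1.24.

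**Figure D4:**
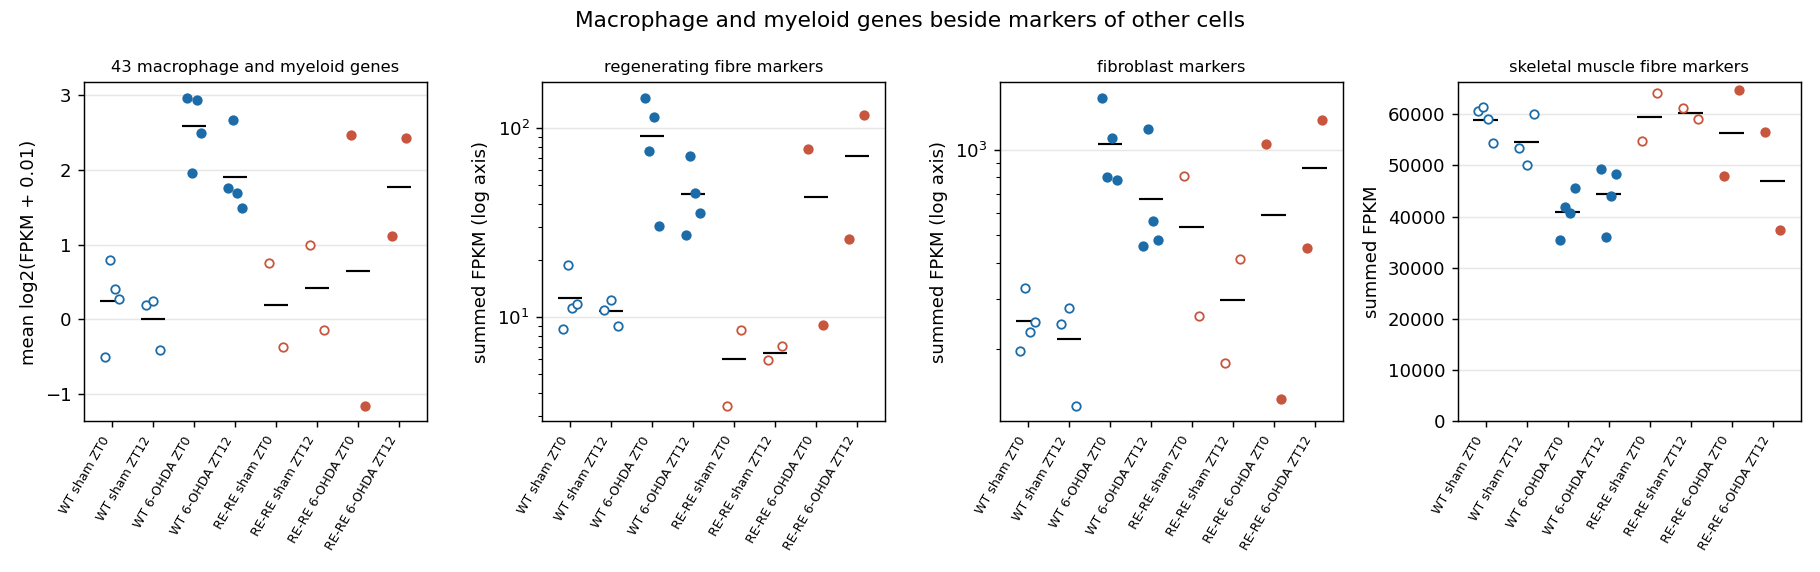
Mean log2(FPKM + 0.01) of the 43 genes, and summed FPKM of markers of regenerating fibres, fibroblasts (both on log axes) and muscle fibres, in each library. Symbols are as in the plot of FPKM by library. The treated wild-type libraries lie above sham for the 43 genes, for regenerating fibres and for fibroblasts, and below sham for muscle fibres.

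In RE-RE muscle the same comparison, 6-OHDA minus sham, asks what the treatment changed where Bmal1 is restored in the cells that the Cre drivers reach. RE-RE sham mice were 10 to 11 weeks old and treated ones 12 to 18, so treatment and age cannot be told apart here. By limma 0 of 42 genes passed, as did 0% of all tested genes (2168 genes, 2 of them among the 42, had an unadjusted p under 0.05). The difference lay above 0 for 39 of the 42, with a median of 0.87 (-0.02 over all tested genes). Gpnmb stood at 0.66, 0.46, 0.47 and 0.87 FPKM in the RE-RE sham libraries 1 to 4, and at 8.32, 0.46, 1.67 and 17.1 in the 6-OHDA libraries 1 to 4, where 1 and 2 are ZT0 and 3 and 4 ZT12. Library 2 was at the sham level and the other 3 above it. Its log2 difference was 2.44 (95% confidence interval 0.29 to 4.59), and that of Trem2, at 0.042, 0.06, 0.087 and 0.028 FPKM in sham and 1.62, 0, 0.498 and 4.62 in treated muscle, was 2.86 (0.13 to 5.59).

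Cd68 stood at 4.76, 1.73, 2.19 and 1.87 FPKM in RE-RE sham and at 10.9, 1.03, 3.41 and 18.9 in RE-RE 6-OHDA muscle. Lyz2 stood at 37.2, 14.7, 49.8 and 13.6 and at 177, 9.22, 40.8 and 189 FPKM. For both genes 2 treated libraries, 1 and 4, lay above all sham libraries and library 2 below them. H2-Ab1 followed with 13.3, 8.26, 25.7 and 8.58 in sham and 37.6, 5.57, 20.9 and 28.0 FPKM in treated muscle. Mrc1 stood at 4.59, 1.65, 5.39 and 1.95 and at 6.66, 1.97, 3.15 and 3.79 FPKM, with overlapping groups.

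Across the 43 genes, treated RE-RE library 2 was the lowest of the 8 RE-RE libraries for 33 and below every wild-type sham library for 34. Treated libraries 1 and 4 were each the highest for 20, and above every wild-type sham library for 41 and 40. Sham library 3 was above every wild-type sham library for 29 genes and sham library 1 for 16. These sham libraries 1 and 3 and treated library 2 also had more genes listed at 0 (520, 463 and 422) than the other 5 RE-RE libraries (280 to 375). The regenerating fibre markers summed to 77.3, 9.08, 26.1 and 117 FPKM in the treated libraries 1 to 4 and to at most 8.63 in RE-RE sham. Treated library 2 was thus the lowest of the 4 treated libraries, though above RE-RE sham. The fibroblast markers summed to 1050, 133, 453 and 1270 FPKM in the treated libraries 1 to 4 and the fat cell markers to 111, 1.6, 35.7 and 60.1 FPKM, with library 2 the lowest of all 8 RE-RE libraries for both. The part of these cells in the spread of the 43 genes was not tested.

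Without those 3 libraries, a choice made after the values were seen, 5 of 42 genes rose in RE-RE muscle (1.97% of all genes were called): Trem2 (log2 4.92 ± 1.04 SE), Ctss (3.65 ± 0.78), Lgals3 (3.50 ± 0.75), C1qb (3.17 ± 0.77) and Pld4 (2.27 ± 0.52), at limma adjusted p from 0.0322 to 0.0478. The median of the 42 genes was then 2.43. The libraries left out are sham ones in which the 43 genes were high and the treated one in which they were low, so leaving them out raises the difference by construction and supports no call. Leaving out single libraries moved the median from 0.08, without treated library 1, to 1.86, without treated library 2, with 0 genes called each time. Of the 4 lists of genes that act with the 42, 0 genes passed in RE-RE muscle with all libraries.

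**Figure D5:**
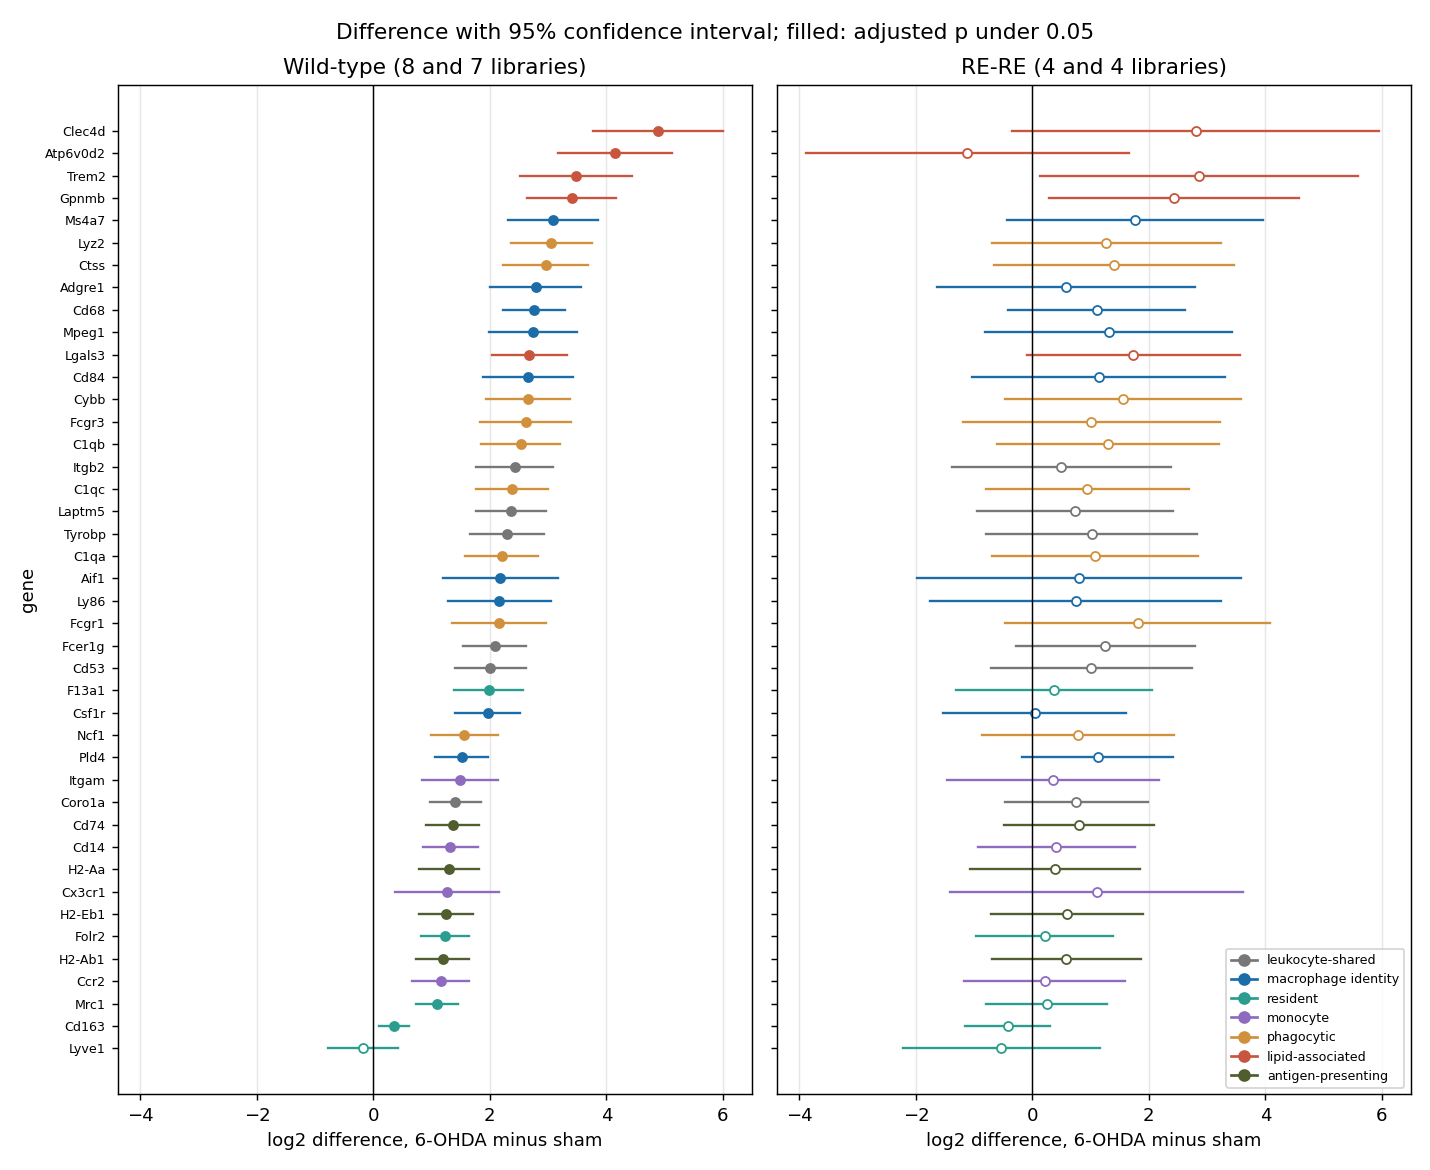
Log2 difference, 6-OHDA minus sham, with its 95% confidence interval for the 42 tested genes in wild-type (left) and RE-RE (right) muscle, ordered by the wild-type value and coloured by role. Filled symbols have an adjusted p under 0.05: 41 in wild-type and 0 in RE-RE muscle, where the intervals are wider.

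The difference between the 2 effects was tested itself, with the same gap in age inside the RE-RE effect. By limma 0 of 42 genes passed (0% of all genes, with 686 at an unadjusted p under 0.05 by the same fit, 4 of them among the 42). The effect in RE-RE was below that in wild-type mice for all 42, with a median difference of -1.11 (-0.03 over all tested genes), which lay between -2.10 (without treated RE-RE library 1) and -0.23 (without treated RE-RE library 2) when single libraries were left out. Leaving out the 3 libraries, which raises it by construction, gave 0.34. For Gpnmb the difference was -0.97 (95% confidence interval -3.25 to 1.31) and for Cd68 -1.66 (-3.27 to -0.043). The interval of Gpnmb includes 0 and a difference of either sign. Atp6v0d2 had the widest gap, -5.26 (-8.20 to -2.32, limma adjusted p = 0.802). It was listed at 3.36, 0.58, 0.22 and 1.59 FPKM in RE-RE sham and at 1.62, 0, 0.66 and 3.05 in RE-RE 6-OHDA muscle, so 3 of the 4 RE-RE sham libraries exceeded the highest wild-type sham value of 0.477. Spp1 (165, 17.1, 5.84 and 50.7 FPKM) and Ctsk (102, 17.6, 9.55 and 32.4) had the same order in these sham libraries. So did the summed fibroblast markers (808, 260, 178 and 415). Gpnmb (0.66, 0.46, 0.47 and 0.87) did not. Which cells held these transcripts was not tested.

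Between genotypes, 0 of 42 genes passed in sham muscle (0.039% of all genes, 5 genes, were called, and 2359 had an unadjusted p under 0.05, 1 of them among the 42), with a median of 0.14 for RE-RE minus wild-type (0.03 over all tested genes). Its sign rests on single libraries: it was -0.23 without RE-RE sham library 3, -0.11 without RE-RE sham library 1 and 0.48 without RE-RE sham library 2. RE-RE sham mice were 10 to 11 weeks old and wild-type sham mice 12 to 18, so genotype and age cannot be told apart in sham muscle. The gene with an unadjusted p under 0.05 was Atp6v0d2 (log2 2.60 ± 1.0 SE, limma adjusted p = 0.208). In 6-OHDA muscle 0 of 42 passed (0% of all genes, 376 at an unadjusted p under 0.05, 10 of them among the 42), with a median of -1.02 that moved to -1.93 without treated RE-RE library 1 and to -0.13 without treated RE-RE library 2. Cd163 differed by -1.0 ± 0.26 SE (limma adjusted p = 0.619): its RE-RE 6-OHDA libraries stood at 0.91, 0.88, 0.75 and 0.82 FPKM, all 4 below the lowest treated wild-type value of 1.21. Without error weights this gene passed (adjusted p = 0.00734).

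Comparing ZT12 with ZT0 asks whether these genes differ with the time of day. In wild-type sham muscle 0 of 42 passed by limma (2.84% of all genes did, and 1 of the 42 had an unadjusted p under 0.05), with a median of -0.41 (-0.01 over all tested genes). The 5 lipid-associated genes had differences above 0 (median 0.64) and the 4 antigen-presenting and 9 phagocytic genes below 0. In wild-type 6-OHDA muscle 0 of 42 passed (2.93% of all genes, with 8 of the 42 at an unadjusted p under 0.05). All 42 differences lay below 0, with a median of -0.66 (0.01 over all tested genes). Treated wild-type mice were 15 to 16 weeks old at ZT0 and 12 to 15 at ZT12, so time and age cannot be fully told apart there.

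Cd68, for example, had means of 18.0 ± 6.33 FPKM at ZT0 and 11.2 ± 4.77 at ZT12 (SD, n = 4 each) in treated muscle, and 1.99 ± 0.46 (SD, n = 4) and 2.02 ± 0.31 (SD, n = 3) in sham muscle. The smallest p was that of Lyve1 in treated muscle, 1.71 ± 0.37 FPKM at ZT0 and 0.908 ± 0.58 at ZT12 (log2 -1.07, limma adjusted p = 0.166). For 0 of the 43 genes did every ZT0 library lie above every ZT12 library, in sham (6.5% of all genes) or in treated muscle (3.27%). For the change of the time difference with treatment 0 of the 42 genes passed (0.0234% of all genes, 3 genes, were called, and 781 had an unadjusted p under 0.05). With 1 weight per library, 10 of the 42 fell from ZT0 to ZT12 in treated muscle, where 12.5% of all genes were called. RE-RE muscle had 2 libraries per time and its time differences were not tested.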

How the data were processed

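The authors deposited log2 values for 14500 genes, log2(FPKM + 0.01), from total RNA of 23 muscles read in pairs. HISAT2 2.1.0, the GRCm38 genome, edgeR 3.30.0, featureCounts 1.6.2, Trim Galore 0.5.0 and FastQC 0.11.8 are named in the submitters' processing notes. Their roles, the strand setting and any scaling factor are not given in the sources used here. Recovered reads divided by the reads implied by the FPKM unit were 1.15 to 1.32 in wild-type sham and 0.839 to 1.08 in wild-type 6-OHDA libraries, so scaling differed between treatments.

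Symbols and coordinates came from GENCODE M21. The 12820 genes that reached an FPKM of 1 in 2 or more libraries were tested, and their deposited values were modelled with limma 3.58.1 (R 4.3.3): 1 mean per group of genotype, treatment and time, 1 error weight per genotype, a trend, and Benjamini-Hochberg adjustment over all tested genes, called under 0.05. The genes, role groups, lists and weights were chosen with earlier results of these data known. Genes named in each role group were the 2 with the smallest p for 6-OHDA in wild-type mice and the most abundant, all resident, lipid-associated and antigen-presenting genes, and any gene called elsewhere, and further members were named to account for the list. In lists of other genes up to 3 with the smallest p were named. Gene ratios, and Atp6v0d2, Spp1, Ctsk and the fibroblast markers set beside them in RE-RE sham muscle, were chosen after their values were seen.

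Recovered reads were whole within 0.1 read for 84.5% to 92.2% of values up to 20 reads. On simulated data a log2 change of 1 was recovered in 89.3% of changed genes for 6-OHDA in wild-type mice (8.22% of calls false). In RE-RE mice 31.2% were recovered (23.9% false), each on 12820 genes. Both shares of false calls lay above the threshold used for calls. Over all tested genes the median residual SD on the log2 scale was 0.22 (wild-type) and 0.45 (RE-RE). The 42 genes spread more, at 0.57 and 1.56, so these shares do not give the recovery for them. Alternatives were another pseudocount, other filters, quantile and equal-sum scaling, other weights, age as a covariate, the replicate block, only the compared libraries, and leaving out libraries.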

Additional observations from a re-analysis of the deposited data

Results flagged for a closer look

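Within groups of 4 wild-type libraries, 10 values of 129 tested groups of values stood far from the other 3 by Dixon's test at its 95% level, where chance gives about 1 in 20 groups, or 6.5. Of these, 8 belong to 1 library, wild-type 6-OHDA library 6 at ZT12, which was high. It had 15.3 FPKM of Fcer1g (9.19 to 10.0 in the other 3), 13.7 of Mpeg1 (4.25 to 5.65), 1.98 of Cd84 (0.608 to 0.79) and 4.7 of Mrc1 (2.66 to 2.87). It also had 3.57 FPKM of Folr2 (1.78 to 2.03), 39.7 of Ctss (15.6 to 19.0), 2.93 of Cybb (1.03 to 1.16) and 109 of Cd74 (51.5 to 60.7). Wild-type 6-OHDA library 2 at ZT0 was low for Cd53, with 2.42 FPKM against 5.88 to 6.54. Wild-type sham library 2 at ZT0 was high for Pld4, with 3.12 FPKM against 1.28 to 1.52.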

How the results depend on the processing

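Of 1028 values of the 42 genes under alternatives for 6-OHDA in wild-type mice, 1022 kept their direction and side of the threshold. Lyve1 turned to 0.35 with equal FPKM sums, a scaling that moved the median of all genes to 0.49 (0.61 at ZT0 and 0.37 at ZT12) and that of the 42 genes to 2.69; the 5 losses were Cd163 and Cx3cr1, given above. A filter of a mean log2 FPKM of at least 1 tested fewer genes, and 20 rose over both times, 20 at ZT0 and 20 at ZT12. Without error weights the counts were 0 for wild-type mice at ZT12, 3 for 6-OHDA in RE-RE mice and 1 between treated genotypes, and without the 3 RE-RE libraries the count in RE-RE mice was 5. For the counts of 20, 3 and 1 the share of all genes called is not given here. They are therefore not results particular to these genes. With 1 weight per library 10 genes fell with time in treated wild-type muscle. Leaving out each library gave 40 to 41 rises in wild-type mice, 39 to 40 at ZT0 and 25 to 37 at ZT12 (25 without wild-type 6-OHDA library 6), 0 to 1 time differences in treated wild-type muscle (1 without library 4 or library 6), and 0 in every other comparison. The cause of these changes was not tested.

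With the replicate block the counts were 41 over both times, 40 at ZT0 and 35 at ZT12 in wild-type mice, and 0 in RE-RE mice and for the difference between genotypes. Ages differ within 10 of 11 same-numbered pairs, nothing in the labels ties a number to a shared mouse or day, and deviations of same-numbered wild-type libraries correlated by -0.12 to 0.066. In RE-RE mice 0.1 and 0.17 were found, each shared by 2 numbers. By median reads per wild-type sham library, depth was lowest for Clec4d (4), Atp6v0d2 (8), Aif1 (11), Fcgr1 (11) and Cx3cr1 (14).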
